A study of Mus musculus with 6 samples.

Results

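Retinoic acid, the active form of vitamin A, is made and read by a short chain of proteins, and 9 genes of this chain were followed in fetal prostate mesenchyme cells with and without estradiol (E2). They are the retinoic acid receptors Rara, Rarb and Rarg, the retinoid X receptors Rxra and Rxrb, the cellular retinoic acid-binding proteins Crabp1 and Crabp2, and the retinal dehydrogenases Aldh1a1 and Aldh1a2. Every probe set of the array that carried one of these symbols and no other was taken, which gave 11 probe sets for the 9 genes among 22626 probe sets in all. Rarg and Rxra had a pair of probe sets each, called first and second here in the order of their identifiers, and the other genes had 1. The rule itself uses the symbol and no measured value.

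The cells were urogenital sinus mesenchyme from male CD-1 mouse fetuses at gestation day 17, the stroma in which the prostate forms, freed with collagenase, parted from the epithelium by settling and used after 1 passage. Both groups were in charcoal-stripped sera with an insulin, transferrin and selenium supplement and 690 pM dihydrotestosterone (DHT), an androgen that cannot be aromatized, and no added retinoid is named in the study's methods. After 3 estrogen-free days, 3 samples received 100 nM E2 for 4 days and 3 control samples received the ethanol vehicle. Each sample was hybridized to 1 Affymetrix mouse 430A array, and the sources do not say whether replicates came from separate cell preparations, so that p-values measure only how these samples spread, and that spread may be technical. A level below is the array signal in fluorescence units after each array was scaled to its median, and a difference is E2 minus control on the log2 scale.

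Cells take up retinol, which travels in blood bound to Rbp4, through the membrane receptor Stra6. Retinol dehydrogenases such as Rdh10 oxidize it to retinal, Aldh1a enzymes such as Aldh1a2 turn retinal into retinoic acid, and Cyp26 enzymes break retinoic acid down. The Crabp proteins hold retinoic acid in the cytoplasm and can pass it to the receptors. An Rar paired with an Rxr sits on response elements built from direct repeats of the half-site AGGTCA and switches transcription when retinoic acid binds. In the prostate, lack of vitamin A is known to turn the glandular epithelium squamous.

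The genes' own promoters were read first, since Rarb is known as a direct target of the receptors it belongs to. RefSeq promoter windows of 300 bases (build GRCm38.p6, from 250 bases before to 50 after a start site) were held for 8 of the 9 genes, 15 windows in all, and Crabp2 had no entry. Both strands were searched for a pair of half-sites AGGTCA with 5 or 2 bases between them (named DR5 and DR2), for the same pairs with the half-site relaxed to A or G for its leading A and to G or T for the G before its T, and for the estrogen response element, GGTCA and TGACC with 3 bases between them. A strict pair is also a relaxed pair and holds the half-site AGGTCA, which a relaxed pair need not hold. The 250 bases before the start are shown for Rarb, whose window held the only pair found, and for Crabp1, the gene with the largest difference below. Capitals mark the relaxed DR5 with the bases between its half-sites.
Rarb, chr14:16575477-16575726, minus strand: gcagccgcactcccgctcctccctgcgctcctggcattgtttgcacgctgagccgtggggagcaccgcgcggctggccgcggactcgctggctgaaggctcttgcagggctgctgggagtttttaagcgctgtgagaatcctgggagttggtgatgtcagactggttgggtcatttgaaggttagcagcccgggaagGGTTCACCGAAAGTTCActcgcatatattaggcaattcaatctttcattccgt
Crabp1, chr9:54764498-54764747, plus strand: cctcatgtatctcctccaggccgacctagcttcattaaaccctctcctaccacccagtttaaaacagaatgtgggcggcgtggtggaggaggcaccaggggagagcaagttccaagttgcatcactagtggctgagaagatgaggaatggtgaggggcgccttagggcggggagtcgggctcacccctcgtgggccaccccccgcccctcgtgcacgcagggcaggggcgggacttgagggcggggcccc

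The relaxed DR5 of Rarb lay from base -53 to base -37, counted from the start site. Of 32851 promoter windows of this length, 0.0974% held a relaxed DR5, 0.268% a relaxed DR2 and 0.07% the estrogen response element. None of the 15 windows held a DR2, relaxed or strict, a strict DR5 or the estrogen response element. A single half-site stood in 1 window each of Rara and Rarg and in 1 window of Rxra, which held a pair of them on opposite strands, and 16.3% of all windows held a half-site. These matches describe letters only, and the absence of a match says no more than that the letters are not in these windows.

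On the arrays, the binding proteins were the members whose groups did not overlap. Both hold retinoic acid, and Crabp2 is known to deliver it to the receptors in the nucleus. Crabp1 had levels of 5.52, 1.59 and 8.91 units in control replicates 1 to 3 and of 20.1, 13.3 and 19.8 units in E2 replicates 1 to 3. Crabp2 had levels of 316, 303 and 364 units in control and of 438, 395 and 379 units in E2. In both genes every E2 array lay above every control array, while the groups overlapped in the other 9 probe sets. Over all probe sets tested, 5.72% had every E2 array above every control array and 8.49% had every one below. Crabp1 passed the signal filter, described below, through E2 alone. In these bulk samples a change in the number of cells of a kind and a change in RNA per cell, in either direction, cannot be told apart.

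The mean of Crabp1 was 5.34 ± 3.66 units without and 17.8 ± 3.84 units with E2 (SD, n = 3 each). The difference was 2.03 on the log2 scale (SE 0.65, 95% interval 0.63 to 3.43, unadjusted p = 0.00762, adjusted p = 0.322 from limma), so that Crabp1 did not pass the test. The study discarded a gene only if it was under 10 units both with and without E2. All 3 control arrays of Crabp1 were below 10 units, and the probe set entered the test by its E2 mean alone. A gene that enters in this way had to differ in the upward direction, and the size of the difference rests on signal near background. With every value under 10 units set to 10 the difference was 0.80, with 16 units added to each value it was 0.67, and without control replicate 2, the array at 1.59 units, it was 1.32. Over the alternatives that kept it in the test, all but the filter at 100 units, the adjusted p of Crabp1 from limma lay between 0.103 and 0.629.

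For Crabp2, which read over 300 units on every array, the mean was 328 ± 32.4 units without and 404 ± 30.7 units with E2 (SD, n = 3 each). The difference of 0.30 (SE 0.12, unadjusted p = 0.0254, adjusted p = 0.532 from limma) did not pass the test either. It corresponds to a ratio of 1.24 with a 95% interval of 1.03 to 1.48. The highest control value (364 units, replicate 3) and the lowest E2 value (379 units, also replicate 3) were closer than the SD within either group.

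**Figure D1:**
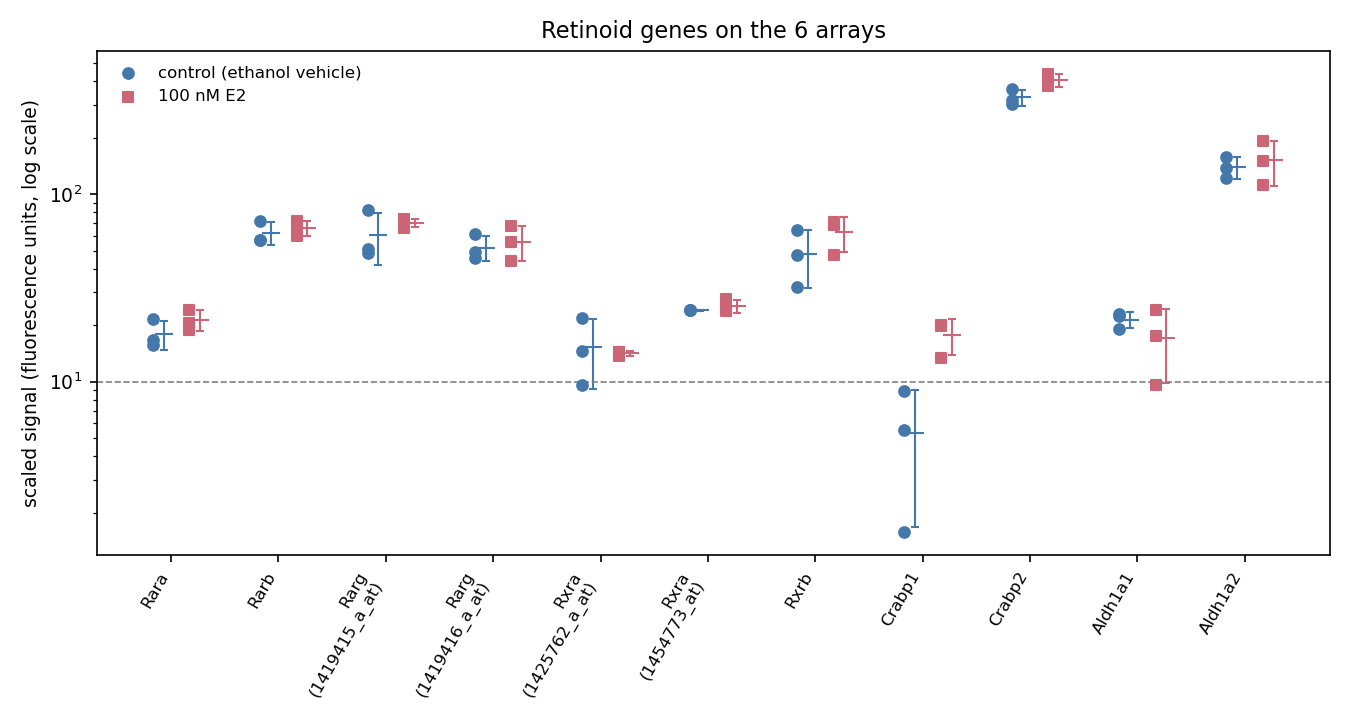
Levels of the 11 retinoid probe sets, as scaled fluorescence units on a logarithmic axis. Circles are the 3 control arrays and squares the 3 arrays of E2-treated cells, each group with its mean and SD beside it, and the dashed line marks 10 units. The groups are apart only in Crabp1, where all control points lie below 10 units, and in Crabp2.

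None of the retinoic acid receptors passed the test, and their groups overlapped. Rarb, whose promoter holds the relaxed DR5 shown above, had levels of 57.0, 72.2 and 57.0 units in control and of 59.98, 71.6 and 66.2 units in E2. The highest control array lay above all E2 arrays, and the difference was 0.09 (SE 0.17, 95% interval -0.27 to 0.46, adjusted p = 0.939 from limma). Rara, the most widely expressed of the receptors in tissues, had levels of 16.6, 21.6 and 15.6 units in control and of 19.0, 20.7 and 24.2 units in E2. Its 3 E2 arrays were spread around the highest control array, and the difference was 0.26 (SE 0.28, 95% interval -0.34 to 0.85, adjusted p = 0.879 from limma).

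Rarg, the receptor known from skin and cartilage, was read by a pair of probe sets. The first had 50.8, 81.9 and 48.7 units in control and 73.3, 70.8 and 66.0 units in E2, with a difference of 0.25 (SE 0.20, adjusted p = 0.815 from limma). The second had 49.0, 60.9 and 45.6 units in control and 67.3, 44.0 and 55.8 units in E2, with a difference of 0.09 (SE 0.20, adjusted p = 0.95 from limma). Both read control replicate 2 as the highest control array, and in the first that array was above every E2 array. Without it the difference of the first was 0.49 (unadjusted p = 0.0239, adjusted p = 0.652 from limma), and it was 0.15 without control replicate 1 and 0.12 without control replicate 3 (adjusted p = 0.94 and 0.951 from limma).

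The retinoid X receptors, which pair with the Rars and with many other nuclear receptors, did not pass the test. Rxrb had levels of 47.4, 32.0 and 64.5 units in control and of 71.4, 47.4 and 68.5 units in E2. Only E2 replicates 1 and 3 lay above all control arrays, and E2 replicate 2 was level with control replicate 1. The difference was 0.41 (SE 0.25, 95% interval -0.11 to 0.94, adjusted p = 0.723 from limma). It was 0.15 without control replicate 2, 0.66 without control replicate 3 and 0.85 without both control replicate 3 and E2 replicate 2 (chosen after the data were seen, as described below for the 18S signal), where the adjusted p from limma was 0.133.

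Rxra, the main retinoid X receptor of skin and liver, was dim on both of its probe sets. By the second it had 24.0, 24.0 and 24.2 units in control and 27.5, 24.4 and 23.9 units in E2, a difference of 0.07 (SE 0.23, adjusted p = 0.97 from limma). Its control arrays spread by an SD of 0.14 units. By the first it had 9.61, 21.9 and 14.6 units in control and 14.4, 13.7 and 14.4 units in E2, a difference of -0.04 (SE 0.37, adjusted p = 0.986 from limma). Here the control arrays were spread and the E2 arrays were close to each other.

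The retinal dehydrogenases make retinoic acid. Aldh1a2, the enzyme of embryonic mesenchyme, had levels of 137, 158 and 121 units in control and of 193, 111 and 151 units in E2. The E2 arrays held both the highest and the lowest of the 6 values, and the difference was 0.10 (SE 0.19, 95% interval -0.30 to 0.50, adjusted p = 0.939 from limma). Aldh1a1 had 19.0, 22.3 and 23.0 units in control and 9.64, 24.1 and 17.4 units in E2, and E2 replicate 1 was the lowest and E2 replicate 2 the highest of the 6 arrays. Its difference was -0.42 (SE 0.34, 95% interval -1.16 to 0.31, adjusted p = 0.818 from limma) and was -0.06 without E2 replicate 1 and -0.72 without E2 replicate 2.

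Of the 11 probe sets, limma called 0 at an adjusted p under 0.05, and 2, those of Crabp1 and Crabp2, had an unadjusted p under 0.05. Among all 14223 probe sets tested, 0.492% were called higher and 0.253% lower, and 7.99% had an unadjusted p under 0.05. The study's thresholds were a ratio of 1.5 and an unadjusted p of at most 0.05. With the p from limma, 1 member, Crabp1, passed them as higher and 0 as lower, where 2.06% of all probe sets were higher and 1.88% lower. The study applied its thresholds in other software, so these shares are not its own. All E2 arrays lay above all control arrays in 2 of the 11 and below them in 0, against 5.72% and 8.49% of the probe sets tested. With so few members these shares are descriptions. The filter kept a probe set whose unscaled values averaged 10 units or more in either group. All 11 passed, 10 of them in both groups and Crabp1 in E2 alone.

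The median difference of the 11 was 0.10, beside -0.04 over all probe sets tested, with 9 positive and 2 negative differences, where 43.4% of all were positive. The median SD within groups was 0.30 on the log2 scale for the members and 0.26 for all. For 5 of the 11 the 95% interval of the difference lay inside a 1.5-fold change in either direction (0.58 on the log2 scale), namely Rarb, Crabp2, Aldh1a2 and the second probe sets of Rarg and Rxra. This held for 41.2% of all probe sets tested. For Rara, Rxrb, Aldh1a1 and the first probe sets of Rarg and Rxra the interval reached past 1.5-fold on at least 1 side, and a change of that size was not resolved by 3 arrays against 3.

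**Figure D2:**
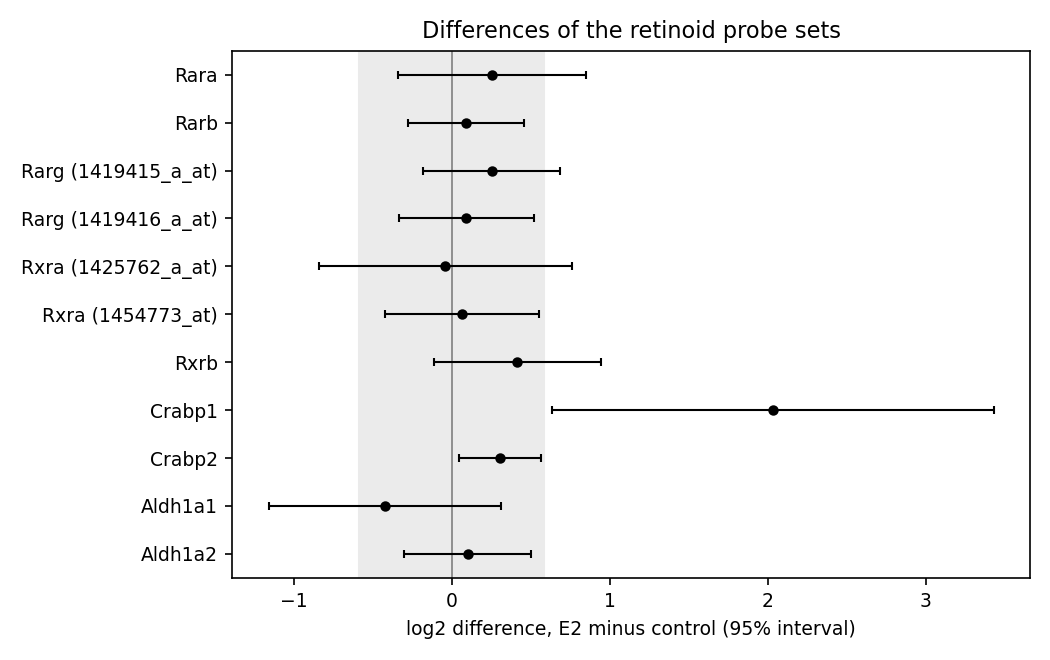
Log2 difference, E2 minus control, of the 11 retinoid probe sets, with the 95% interval from limma. The shaded band spans a 1.5-fold change in either direction. The intervals of Crabp1 (0.63 to 3.43) and Crabp2 (0.04 to 0.57) do not cross 0, and that of Crabp1 is the widest.

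**Figure D3:**
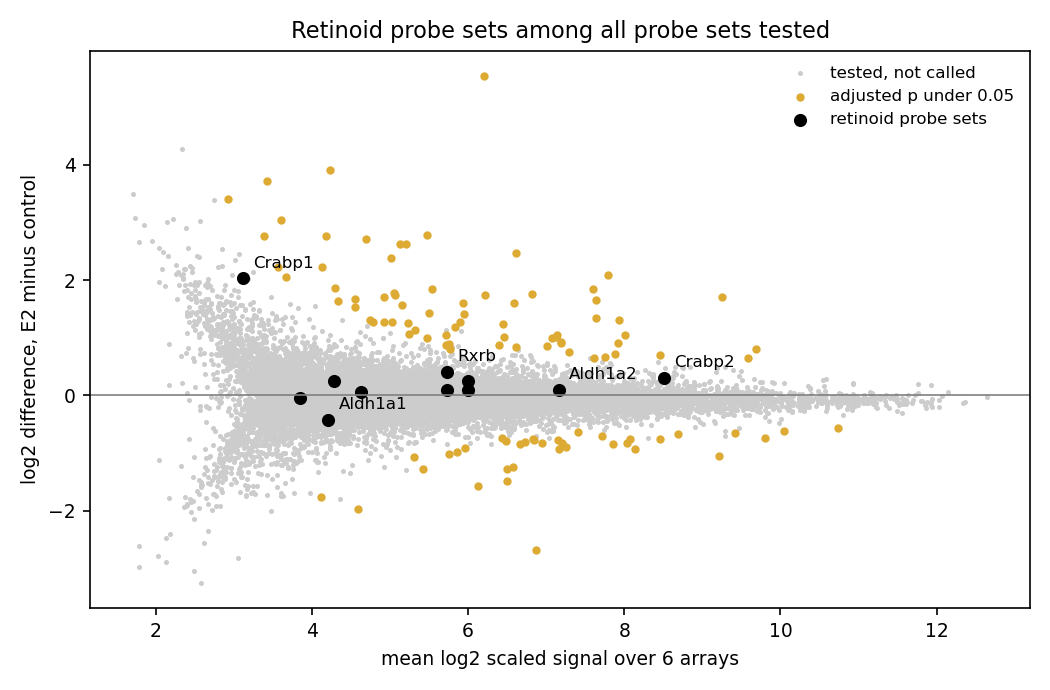
Log2 difference, E2 minus control, against the mean log2 signal over the 6 arrays for the 14223 probe sets tested (grey), those with an adjusted p under 0.05 from limma (yellow) and the 11 retinoid probe sets (black). Crabp1 lies at the dim end, where differences of uncalled probe sets spread widely, and Crabp2 lies among brighter probe sets at a difference of 0.30.

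Other genes of the pathway were read by their brightest probe set. Of 57 genes listed by role, 50 were on the array and 25 had signal above the filter. Of these limma called 0, and 1 was higher and 3 were lower at an unadjusted p under 0.05. Of all probe sets tested, 7.99% had an unadjusted p under 0.05 from limma. The 25 had a median difference of -0.15, with 11 positive and 14 negative, where 43.4% of all probe sets tested were positive. Rbp3 and Rbp4 entered the test by E2 alone and Aldh1a7 by control alone, so the filter all but fixed their direction. The remaining 25, among them the retinoid X receptor Rxrg, the retinol esterifying enzyme Lrat, the retinal dehydrogenase Aldh1a3 and the retinoic acid hydroxylase Cyp26a1, had means under 10 units in both groups and were not tested.

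Among 4 tested genes of binding and uptake, Rbp4, the blood carrier of retinol, had 5.49, 6.46 and 9.03 units in control and 15.96, 16.01 and 24.4 units in E2. All E2 arrays were higher, as in Crabp1, and the probe set also entered the test by E2 alone (difference 1.43, SE 0.43, unadjusted p = 0.005, adjusted p = 0.255 from limma). With 16 units added the difference was 0.59. Rbp3, the retinoid carrier of the eye, had means of 5.57 and 10.8 units (adjusted p = 0.74 from limma). Fabp5, a fatty acid-binding protein that can carry retinoic acid to another nuclear receptor, had 271, 326 and 273 units in control and 226, 203 and 267 units in E2. Its E2 arrays all lay lower, and the difference was -0.33 (SE 0.14, unadjusted p = 0.0336, adjusted p = 0.582 from limma). Fabp5 had -0.28 on its other probe set.

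Of 7 tested genes that handle retinol and retinal, 2 had positive and 5 negative differences. Adh1, an alcohol dehydrogenase that oxidizes retinol, had a mean of 106 ± 19.5 units without and 78.0 ± 11.4 units with E2 (SD, n = 3 each), a difference of -0.44 (unadjusted p = 0.026, adjusted p = 0.537 from limma). Rdh10, which starts retinoic acid synthesis in the embryo, had 173, 167 and 172 units in control and 144, 154 and 164 units in E2. Its groups did not overlap, and the difference was -0.15 (SE 0.13, adjusted p = 0.83 from limma). Rdh14 had a difference of -0.24 (adjusted p = 0.848 from limma). The sole tested gene listed under synthesis and breakdown beside the members, Aldh1a7, was near background with means of 10.3 and 6.43 units (adjusted p = 0.857 from limma).

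Among 6 tested genes known to answer to retinoic acid, 4 differences were positive and 2 negative. Meis2, a homeodomain transcription factor, had 203, 165 and 171 units in control and 124, 136 and 131 units in E2. All E2 arrays were lower, and with a difference of -0.46 (SE 0.14, unadjusted p = 0.00443, adjusted p = 0.239 from limma) Meis2 did not pass. Tgm2, tissue transglutaminase, had -0.17 by its brightest probe set (adjusted p = 0.757 from limma), and 4 further tested probe sets gave 0.07, 0.00, -0.10 and -0.41, which disagree in sign. All E2 arrays were lower by the brightest and by that at -0.41 (unadjusted p = 0.0125, adjusted p = 0.399 from limma). By the other tested probe sets the groups overlapped. Bhlhe40, a transcriptional repressor of the clock, had 0.23 (adjusted p = 0.771 from limma).

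Of the 7 tested receptors that pair with Rxr or compete for its sites, 3 differences were positive and 4 negative. The 3 with the smallest p were the orphan receptor Nr4a1 at -0.39 (SE 0.20), the thyroid hormone receptor Thra at 0.31 (SE 0.17) and the orphan receptor Nr2f1 at -0.36 (SE 0.21). None passed the test, with adjusted p of 0.669, 0.697 and 0.712 from limma, and the groups overlapped in each. With single arrays left out, Nr4a1 ran from -0.53 to -0.25, Thra from 0.23 to 0.45 and Nr2f1 from -0.59 to -0.19, each extreme being set by control replicate 1 or 2.

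**Figure D4:**
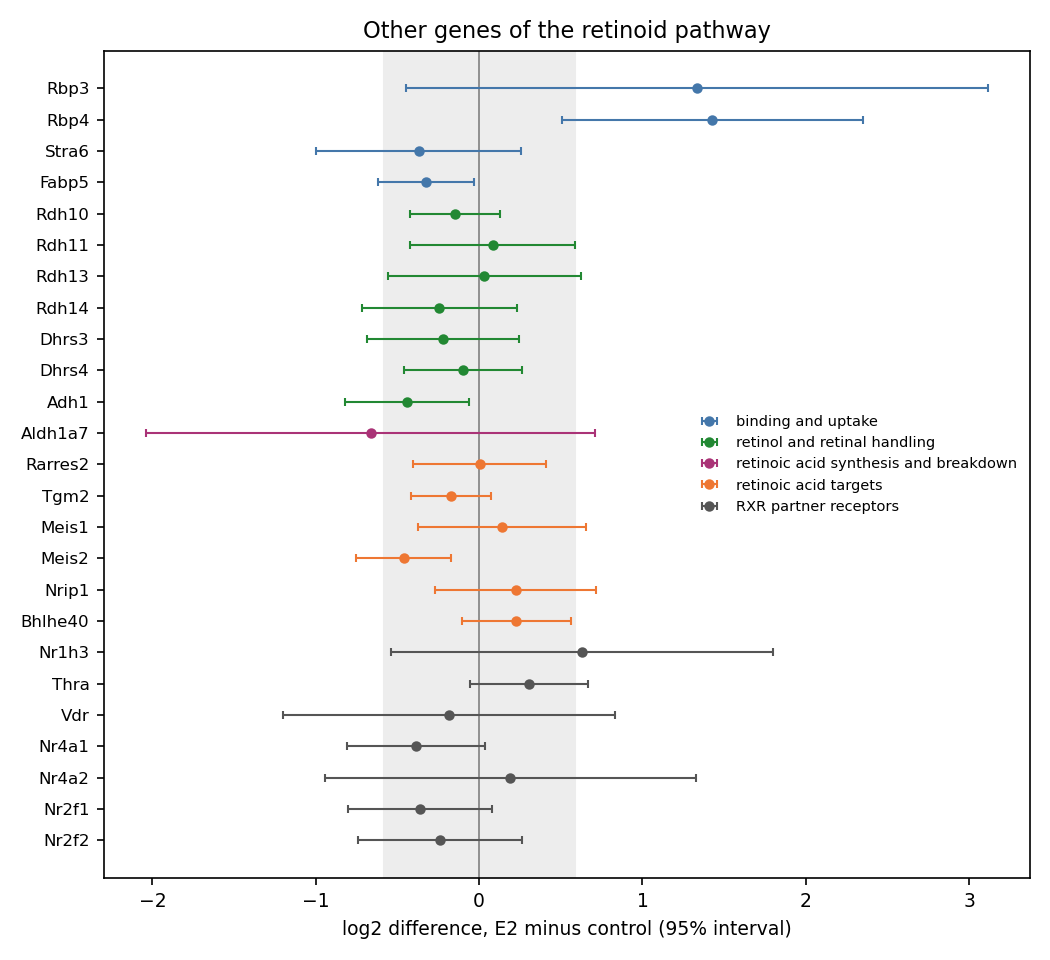
Log2 difference, E2 minus control, with the 95% interval from limma for the 25 other retinoid pathway genes tested, colored by role, with a band at 1.5-fold in either direction. The intervals of Rbp4, Fabp5, Adh1 and Meis2 do not cross 0, and none of the 25 had an adjusted p under 0.05.

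By likeness over the 6 arrays, the probe sets closest to Crabp2, the member with the highest mean signal, were those of Gpr180, Pgm1 and Grpel1, with Pearson correlations of 0.995, 0.987 and 0.985 of the scaled log2 values. They were the highest of 3265 probe sets of other genes with a mean of at least 100 units, so that high values had to occur, and all points share the scaling of their array. Crabp2 was higher on every E2 array, so the choice all but fixed the direction of their differences, which were 0.16, 0.38 and 0.36. None passed the test, at adjusted p of 0.825, 0.416 and 0.574 from limma.

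In the same fit Thbs2, a matricellular glycoprotein that passed the filter in both groups and was picked with earlier results known, rose from 338 to 1106 units on 1 probe set (adjusted p = 1.76e-06 from limma) and from 108 to 459 units on the other (adjusted p = 7.91e-07 from limma). Pgr, the progesterone receptor and a known estrogen target, which entered the test by E2 alone, rose from 5.57 ± 1.15 to 26.2 ± 7.45 units (SD, n = 3 each; difference 2.22, SE 0.41, adjusted p = 0.02 from limma), with all control arrays below 10 units. Array medians were 13.7 to 21.8 units before scaling, and arrays correlated at 0.934 to 0.960 within groups and at 0.922 to 0.95 between them. A control probe set for 18S ribosomal RNA was bright on control replicate 3 (345 units) and on E2 replicate 2 (361 units) and at 21.6 to 44.9 units elsewhere. Other 18S control probe sets set these arrays apart less. By the middle set, control replicate 3 and E2 replicate 2 read 35.3 and 17.6 units, with 8.21 to 14.2 units elsewhere. By the 3' set they read 47.4 and 69.0 units, with 14.1 to 27.3 units elsewhere. Without both arrays, a setting chosen after the data were seen, no member or other pathway gene was called, and Crabp1 and Crabp2 had differences of 2.75 and 0.40 (adjusted p = 0.177 and 0.191 from limma). Mesenchymal markers were all 8 above the filter, with a summed signal of 12126 to 13954 units in control and of 11804 to 12670 units in E2. Of 8 epithelial markers 4 were tested and 1, Krt18, rose from 39.1 to 72.0 units (adjusted p = 0.0416 from limma), while Krt8, Krt14 and Krt19 entered the test by E2 alone. The summed signal of the 8 was 55.2 to 89.7 units in control and 137 to 140 units in E2. Krt18 was its largest part, at 36.8 to 42.3 units in control and 60.4 to 83.5 units in E2. Epcam was at 0.564 to 4.52 units in control and 3.68 to 12.7 units in E2. All 8 macrophage and leukocyte markers had negative differences, none called, with sums, mostly of Lyz2, of 581 to 948 units in control and 522 to 626 units in E2. The complement genes C1qb and C1qa are named after their values were seen. C1qb (48.4 ± 15.1 and 20.1 ± 4.95 units, SD, n = 3 each, adjusted p = 0.063 from limma) and C1qa (28.7 ± 5.55 and 16.2 ± 3.90 units, adjusted p = 0.375 from limma) were lower by the 1.5-fold rule, with groups that did not overlap. Endothelial markers summed to 24.6 to 32.9 and 30.8 to 41.3 units, with Pecam1 at 0.546 to 1.55 units over the 6 arrays, and smooth muscle markers to 6235 to 7877 and 6685 to 7497 units. Of the 8 mesenchymal markers, 6 had negative and 2 had positive differences. The epithelial sum was higher in E2, as were Crabp1, Crabp2 and Rbp4. The macrophage and leukocyte markers had negative differences, as had Fabp5, Adh1 and Meis2, but the sums of these markers overlapped between the groups. The part of these markers in those differences was not tested.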

How the data were processed

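Total RNA was hybridized to 6 Affymetrix mouse 430A arrays, 3 of control and 3 of E2-treated cells, grouped by their labels. The authors turned the scans into the deposited intensity values (linear, 1 for each probe set on each array) with the array maker's software. Its version, the signal algorithm and any scaling: not given in the sources used here. After 64 control probe sets were left out, log2 values were centered on each array's median. Those averaging 10 deposited units or more in either group were fitted in R 4.3.3 with limma 3.58.1 (lmFit, eBayes with a variance trend), two-sided, with Benjamini-Hochberg adjustment over all 14223 probe sets at a threshold of 0.05. Centering moved the median difference over all probe sets from 0.02 to -0.04. The fit was tested on simulated data.

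Gene symbols were those of GEO's platform annotation, renewed through the gene identifier. Of 22626 probe sets, 20380 had 1 symbol, 691 several and 1555 were not listed there. A gene outside the members was read by its brightest probe set. Named were all members, up to 3 genes per list with the smallest p, any gene called, 3 genes most like the member with the highest signal, and Pgr and Thbs2 as genes that answer to E2. The members, lists and tests were chosen with earlier results of these data known. Alternatives were other normalizations, offsets, filters and variance models, the replicate number as a block, and each array left out. Leaving out both arrays of high 18S signal was added after the data were seen. The number of arrays limits the precision. Promoter windows were taken from RefSeq and named by symbol. Neither the qPCR nor the low-dose experiment of the study was analysed here.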

Additional observations from a re-analysis of the deposited data

How the results depend on the processing

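No retinoid probe set and no other retinoid pathway gene was called under any of the 17 alternatives, and the smallest adjusted p was 0.103, for Crabp1 with array weights. The filter at 100 units kept only Crabp2 and Aldh1a2 of the members in the test, so the other members could not be called there. Of 390 recomputed differences of members and named pathway genes, 383 kept their direction. The 7 others were Rarb at -0.026 without the 18S-rich pair of arrays, the second Rarg probe set at -0.055 and Aldh1a2 at -0.091 without E2 replicate 1, the first Rxra probe set at 0.021 with the values as deposited and 0.26 without control replicate 2, and Rdh14 at 0.0032 without E2 replicate 2 and 0.0044 without the 18S-rich pair. The cause was not tested. With single arrays left out, the differences ran from -0.055 to 0.25 for this Rarg probe set, from -0.34 to 0.26 for the Rxra probe set, from -0.091 to 0.30 for Aldh1a2 and from -0.46 to 0.0032 for Rdh14. The number of members higher by the 1.5-fold rule, 1 in the fit reported, was 0 with a filter at 100 units, where Crabp1 was among the members removed. It was 2 with array weights and without the 18S-rich pair (chosen after seeing the data), where Rxrb joined. With single arrays left out it was 1 to 2, and 2 without control replicate 3 or E2 replicate 2. With the replicate number as a block, 0 members were called, 1 was higher by the 1.5-fold rule, and Crabp1 had an adjusted p of 0.301. Same-numbered arrays deviated from their group means with correlations of 0.008, -0.05 and -0.06, so the numbers were not taken as pairs. Control and E2 replicate 1 correlated best with their own number, and the other 4 arrays did not. Over all probe sets, limma called 70 higher and 36 lower, 39 and 7 with the values as deposited, 112 and 70 with array weights, and 15 and 1 without a variance trend. Signal near 10 units limits Crabp1, Rbp4 and the first Rxra probe set.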
